A study of Mus musculus with 22 samples.

Results

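The genes described here are 40 members of the signalling pathway that lies directly under the T cell receptor (TCR), out of 55011 gene symbols in the count table. They are a list of named genes grouped by role, put together with earlier results of these data known. The list holds the CD3 and zeta chains of the receptor complex, the coreceptor CD4 and the costimulator CD28, 4 tyrosine kinases, 5 adaptors, 7 effector proteins, 3 NFAT transcription factors, the phosphatase CD45 and 14 genes that mostly act as brakes on the pathway. Of the 40, 39 passed the filter on low counts and were tested, and Spry2 did not.

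The libraries came from regulatory T cells (Tregs), sorted as Foxp3YFP+ cells in 2 rounds, 1000 cells to a library, from the visceral adipose tissue of male C57BL/6 Foxp3.Cre-YFP mice at ZT0, when the lights come on. Cells labelled WT or KO for Bmal1, the clock transcription factor encoded by Arntl, were taken from lean mice on a low fat diet and from mice after 4 weeks of high fat diet, both 18 weeks old. Further cells of either genotype came from mice fed high fat diet for 16 weeks, which were 30 weeks old. Each of these 6 groups held 3 libraries. The last 2 groups, of 2 libraries each, held cells sorted 9 weeks after adoptive transfer, from mice 20 weeks old. All groups share the Foxp3-driven Cre-YFP allele, so any deletion is limited to cells that have expressed Foxp3. Neither the deleted stretch of Bmal1 nor the host of the transferred cells is given in the sources used here. The strain named above is therefore not taken to be that of the host. Diet of 16 weeks and age cannot be told apart in this design. Neither can transfer and its host, sorting, sequencing depth or run. Nothing in the labels says that libraries of a group came from separate mice, so p-values measure the spread between these libraries, which may be technical.

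The TCR itself has no enzyme. When it binds its ligand, the kinase LCK phosphorylates the CD3 and zeta tails, ZAP70 docks there and phosphorylates the scaffold proteins LAT and SLP-76, and the enzymes that gather on this scaffold raise calcium and activate protein kinase C theta, RAS and the NFAT factors. Phosphatases, ubiquitin ligases, diacylglycerol kinases and inhibitory receptors limit the signal at each step. Tregs need signals through their receptor to keep their effector programme, and visceral adipose Tregs are known for a restricted set of receptors and for the factor PPAR-gamma.

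Counts summed to between 1955940 and 3467019 per library in the diet groups and to between 4814337 and 5990319 after transfer, and the members took 1.39% to 1.73% and 1.24% to 1.30% of them. Levels are given as CPM, counts relative to the library total after TMM scaling, which corrects for differences in RNA composition between libraries. Arntl counts were no lower in libraries labelled KO (74.0 to 102 CPM lean, against 64.6 to 74.9 CPM in WT). Counts over the whole gene check nothing where the deleted stretch is not known, and genotypes are therefore used as labelled. The defining genes of the sorted cells were present in all libraries, with Foxp3 at 405 to 688 CPM, Il2ra at 301 to 1936.5 CPM and Cd2 at 641 to 927 CPM. Summed markers of B cells (4.15 to 34.1 CPM) and myeloid cells (2.83 to 16.5 CPM) were low everywhere. Summed stromal and adipocyte markers stood apart in 1 library, 16 weeks KO replicate 1, at 67.6 and 53.3 CPM. There Dcn (134 counts) and Col1a1 (51) made up most of the stromal sum. The adipocyte sum was Fabp4 alone (148 counts), with Adipoq and Plin1 at 0. Cytotoxic T and NK markers summed to 104 to 390 CPM in lean and 4-week cells and to 133 to 179 CPM after transfer. The highest value was 710 CPM, in 16 weeks WT replicate 3. In that list Cd8a was at 0 in all diet libraries. Cd8b1 (20 to 96 counts), Nkg7 (232 to 1880) and Prf1 (4 to 120) had counts in each of them. Ncr1, Klrb1c and Trdc had at most 8 counts there.

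The 4 transfer libraries stood apart in the receptor genes, which were looked at after their values were seen. Trav14n-3 took 97.9%, 95.9%, 99.1% and 99.0% of the counts on alpha chain V segments in transfer WT 1, WT 2, KO 1 and KO 2. In the 18 diet libraries it took 0.162% to 6.13%. On the beta chain, Trbv2 took 97.3%, 98.5%, 99.1% and 99.1% of V segment counts after transfer, against 1.24% to 7.68% in the diet libraries. The most used alpha segment differed among the diet libraries and took 5.93% to 29.2% of alpha counts there. Trac, the alpha constant gene, was at 466 to 702 CPM in the diet libraries and at 4130.3, 7163, 7304 and 8058 CPM after transfer. Near-identical copies in the Trav14 family can share reads, so the exact member is uncertain. The labels do not speak of a fixed receptor, and the comparison of transferred with lean cells below cannot be told apart from this difference. All 4 transfer libraries, WT and KO, shared it.

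Of the members, Cd3g, Cd3d and Cd3e sit together within chr9:44969572-45009627 (mm10, GENCODE M21), with Cd3g and Cd3d head to head and their starts 1355 bases apart. The 250 bases before the RefSeq start (GRCm38.p6, 5′ to 3′ on the strand of the gene) are shown for these 3 genes, since 2 of them rose with the 16-week diet, and for Ubash3b, which was called in opposite directions at 16 weeks and after transfer. These 4 were chosen after their values were seen. Capitals mark CANNTG, the E-box core, of which CACGTG, the form bound by BMAL1 with CLOCK, is a special case.
Cd3g, chr9:44980432-44980681, minus strand: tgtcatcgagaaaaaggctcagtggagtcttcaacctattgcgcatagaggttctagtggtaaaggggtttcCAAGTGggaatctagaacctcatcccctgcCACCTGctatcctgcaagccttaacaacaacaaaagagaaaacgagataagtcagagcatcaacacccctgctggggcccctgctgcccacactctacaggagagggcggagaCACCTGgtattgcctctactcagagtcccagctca
Cd3d, chr9:44981536-44981785, plus strand: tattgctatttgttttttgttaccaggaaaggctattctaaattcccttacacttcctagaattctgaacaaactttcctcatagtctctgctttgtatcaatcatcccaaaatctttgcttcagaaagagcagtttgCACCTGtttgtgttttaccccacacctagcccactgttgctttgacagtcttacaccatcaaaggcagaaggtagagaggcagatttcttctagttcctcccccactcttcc
Cd3e, chr9:45009612-45009861, minus strand: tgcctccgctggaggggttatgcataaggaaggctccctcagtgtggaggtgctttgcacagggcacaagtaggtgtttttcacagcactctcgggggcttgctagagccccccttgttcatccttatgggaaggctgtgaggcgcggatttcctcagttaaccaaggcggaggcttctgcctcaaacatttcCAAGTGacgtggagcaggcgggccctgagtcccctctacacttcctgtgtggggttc
Ubash3b, chr9:41158063-41158312, minus strand: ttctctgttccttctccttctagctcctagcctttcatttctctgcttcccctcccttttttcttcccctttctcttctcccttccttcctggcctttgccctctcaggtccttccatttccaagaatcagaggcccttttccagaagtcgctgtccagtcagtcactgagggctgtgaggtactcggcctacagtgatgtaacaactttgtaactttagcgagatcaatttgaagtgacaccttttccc
CANNTG reads the same on both strands. It occurred 3 times before Cd3g, 1 time before Cd3d, 1 time before Cd3e and not in the Ubash3b window. Each window shown is that of the first listed RefSeq start. For Ubash3b it lies inside the gene as annotated in GENCODE M21 (chr9:41011098-41161697). The annotated 5′ end of that gene lies further upstream, and its window is not shown. None of the 4 windows held CACGTG. RefSeq windows were matched for 33 of the 40 members, as 49 windows, and 3 of these (6.12%; Dgka, Lat and Nfatc3) held CACGTG, against 6.02% of all 32851 windows. CANNTG was in 71.4% of member windows and 66.2% of all windows. GGAAA, the core read by NFAT factors, searched on both strands, was in 67.3% of member windows and 55.6% of all. A match describes letters only.

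Per kilobase of merged exon, the most abundant members in the diet libraries were Lck at 422 CPM per kb, Cd3d at 310.8, Dgka at 224.9, Cd3g at 204, Cd3e at 199.9 and Lat at 184.9 CPM per kb. The same 6 genes ranked highest when the length was that of the longest coding transcript, in another order, led by Cd3g at 651.8 CPM per kb. Thus the 3 CD3 chains, the kinase Lck and the scaffold Lat were the most abundant members by either length, together with Dgka, the diacylglycerol kinase alpha that removes a second messenger of the pathway. At the low end by merged exon lay Txk, a TEC family kinase, at 4.18 CPM per kb, Themis at 3.34 CPM per kb and Sos1, a RAS exchange factor, at 1.65 CPM per kb. Spry2, a Sprouty family inhibitor, had 0 counts in 14 of the 22 libraries, which allows up to 0.542 to 1.51 CPM depending on the library. Its highest level was 3.43 CPM, from 10 counts, in 16 weeks WT replicate 3. Such floors cover counting error only.

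**Figure D1:**
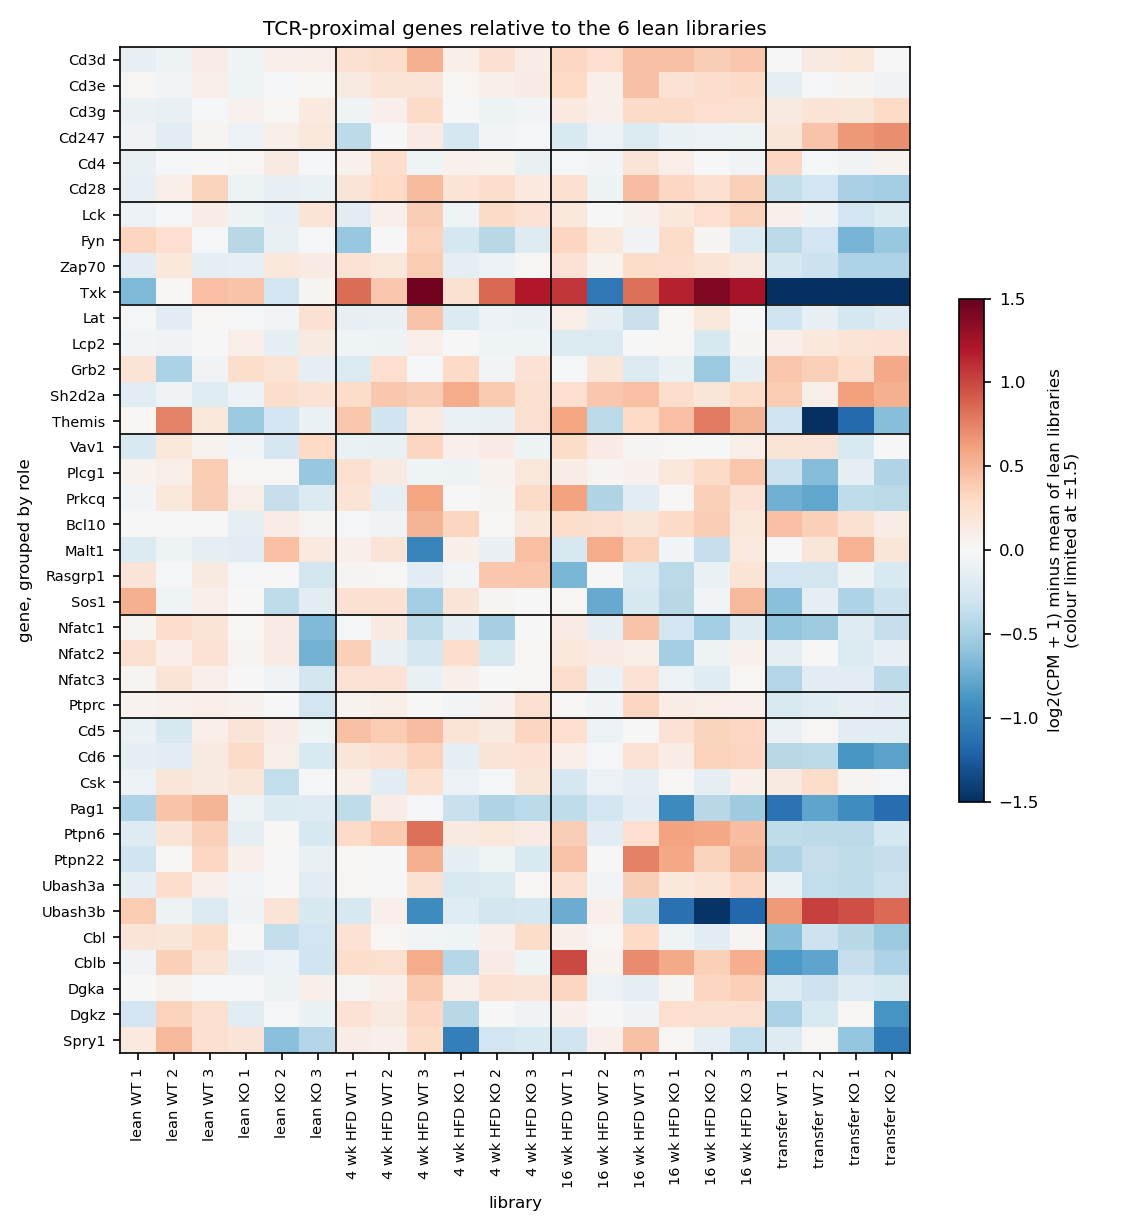
Heat map of the 39 tested members (rows, grouped by role) in 22 libraries (columns, grouped by condition). Colour is log2(CPM + 1) minus the mean of the 6 lean libraries, limited to ±1.5, and the strongest colours stand in the rows of Txk and Ubash3b and in the transfer columns.

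Of the 39 tested members, 18 passed in none of the 13 comparisons, and the levels of 16 of them follow, with Cd3g and Dgka described with the comparisons, as ranges of CPM over the 18 diet libraries and then over the 4 transfer libraries. The coreceptor Cd4, which brings LCK to the receptor, ranged from 650.3 to 846 CPM and from 679 to 874 CPM. Lck ranged from 1027 to 1480 CPM and from 943 to 1211 CPM. Ptprc, which encodes CD45, the phosphatase that keeps LCK ready to act, ranged from 1133 to 1722 CPM and from 1174 to 1251 CPM. These 3 genes at the head of the pathway, with Cd3d, Cd3e and Cd3g, thus overlapped between the diet and transfer libraries. The zeta chain Cd247 did not, at 327 to 484 CPM and 486 to 695 CPM.

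The scaffold genes did not pass either. Lat, the membrane scaffold, ranged from 408 to 692 CPM and from 419 to 472 CPM, and Lcp2, which encodes SLP-76, from 505 to 655 CPM and from 631 to 693 CPM. Grb2, the adaptor that brings SOS to LAT, ranged from 29.6 to 54.0 CPM and from 53.0 to 65.7 CPM, so only the lowest transfer library lay inside the diet range. It missed the threshold against lean cells (log2 fold change 0.39, adjusted p = 0.0788).

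Among the effectors, Vav1, an exchange factor for RAC, ranged from 206 to 307 CPM and from 209 to 282 CPM. Bcl10, which links protein kinase C theta to NF-kappaB, ranged from 77.0 to 122 CPM and from 91.8 to 117 CPM, and its partner Malt1, a protease, from 80.8 to 237 CPM and from 160 to 232 CPM. Rasgrp1, the exchange factor that diacylglycerol recruits to activate RAS, ranged from 212 to 456 CPM and from 278 to 323 CPM. Each transfer range lay within the diet range for these 4 genes. The same held for Nfatc2, at 86.4 to 183 CPM and 123 to 142 CPM.

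Of the brakes in this set, Cd5 ranged from 537 to 873 CPM and from 566 to 640 CPM. Csk, the kinase that puts LCK into its inactive form, ranged from 160 to 243 CPM and from 202 to 248.7 CPM. Dgkz, which like Dgka removes diacylglycerol, ranged from 51.4 to 88.2 CPM and from 37.1 to 69.8 CPM. Spry1 ranged from 33.1 to 95.7 CPM and from 32.4 to 69.0 CPM, and for each of these 4 brakes the diet and transfer ranges overlapped. Sos1, the member with the fewest counts among those tested, ranged from 10.04 to 25.9 CPM and from 11.03 to 15.9 CPM.

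Loss of Bmal1, as labelled, was compared within each diet, on average over the diets, and after transfer, with the edgeR quasi-likelihood test and Benjamini-Hochberg adjustment over all genes tested, as were all comparisons that follow. None of the 39 members passed an adjusted p of 0.05 in lean, 4-week, 16-week or transferred cells, or on average over the 3 diets. Few genes passed at all: 0.0427%, 0.0684%, 0.0427%, 0.171% and 0.18% of those tested in the same order. With DESeq2, 1 member passed at 16 weeks (Ubash3b) and 1 after transfer (Cd6), and 0 elsewhere. At an unadjusted p under 0.05 there were 5, 5, 3, 9 and 8 members in that order, against 7.17%, 4.62%, 9.15%, 6.53% and 7.39% of all genes. The median log2 fold change (KO over WT) of the members was between -0.09 and 0.05 in these comparisons, and that of all genes was 0.

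The member with the smallest p at 16 weeks was Ubash3b, which encodes the phosphatase STS-1 that acts on ZAP70. It was at 146, 259 and 189 CPM in the 3 WT libraries and at 113, 88.2 and 109 CPM in the 3 labelled KO, so all KO libraries were lower and the groups did not overlap. The log2 fold change was -0.94 ± 0.23 (SE, n = 3 and 3, edgeR adjusted p = 0.201). DESeq2 gave an adjusted p of 0.0263, and without 16 weeks WT replicate 1 edgeR gave -1.12 with an adjusted p of 0.0467. In lean cells the same gene was at 321, 233 and 212 CPM in WT and at 238, 285 and 209 CPM in KO, which overlap.

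Among the kinases and adaptors, no genotype difference passed. Zap70 was at 405, 392 and 453 CPM in 4-week WT and at 315, 326 and 351 CPM in 4-week KO. These groups did not overlap, with a log2 fold change of -0.33 ± 0.11 (adjusted p = 0.999). In lean cells Zap70 levels of both genotypes lay between 309 and 387 CPM and overlapped. Of the lean members, Cbl, a ubiquitin ligase that marks active kinases for degradation, had the smallest p. It was at 229, 229 and 242 CPM in WT and at 199.8, 156 and 164 CPM in KO, and all KO libraries were lower (log2 fold change -0.42 ± 0.13, adjusted p = 0.41).

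After transfer, Cd6, an inhibitory receptor that binds ALCAM, had the smallest p among the members. Its 2 WT libraries were at 665 and 669.6 CPM and the 2 KO libraries at 482 and 508 CPM, without overlap (log2 fold change -0.44 ± 0.10, adjusted p = 0.312; DESeq2 adjusted p = 0.0418). In the diet groups Cd6 levels of WT and KO overlapped. Averaged over the diets, Spry1, a Sprouty inhibitor of RAS signalling, gave the smallest p, with a log2 fold change of -0.47 ± 0.13 (adjusted p = 0.335). Its mean in WT and KO was 84.1 and 57.3 CPM in lean cells and 76.1 and 48.9 CPM at 4 weeks. At 16 weeks it was 73.2 and 61.3 CPM, and after transfer 64.2 and 38.9 CPM. The ranges of WT and KO did not overlap for 6 members in lean cells (15.4% of members, 13.1% of all genes), 8 at 4 weeks (20.5% and 9.64%), 8 at 16 weeks (20.5% and 14.3%) and 19 after transfer (48.7% and 35.6%). Over all 18 diet libraries together it was 0 members, and 0.094% of all genes.

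**Figure D2:**
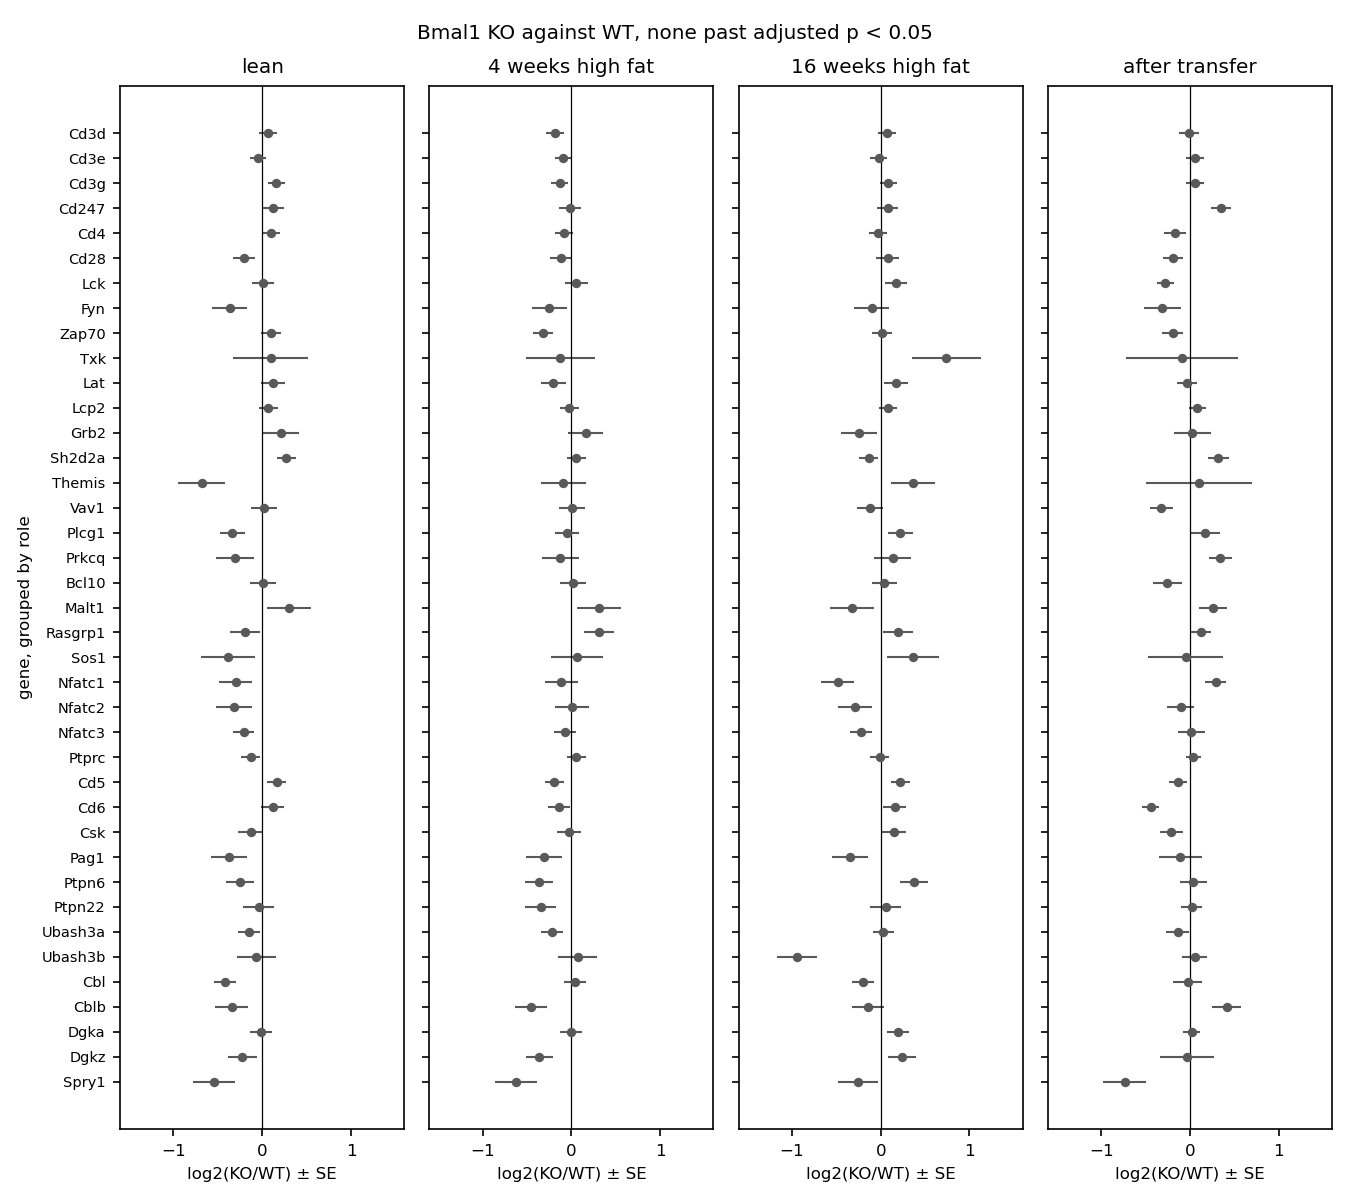
Log2 fold change of KO over WT (x axis, bars show the SE) of each tested member (y axis) in lean, 4-week, 16-week and transferred cells, 1 panel each. No member passed the test in any panel, and Ubash3b at 16 weeks lies at -0.94.

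Between 4 weeks of high fat diet and lean cells no member passed either. In this comparison 0 of 39 members passed in WT and 0 in KO, and 0% of all genes passed in each. DESeq2 called 0 members too, and with no filter on low counts edgeR called 2 in WT. Unadjusted p-values under 0.05 were found for 7 members in WT, all with positive fold changes, and for 4 in KO, against 5.59% and 7.15% of all genes. Cd5, a receptor that dampens TCR signals and whose level is known to follow signal strength in thymocytes, had the smallest p in WT (log2 fold change 0.49 ± 0.11, adjusted p = 0.784; adjusted p = 0.032 with no filter on low counts). Cd3d was at 444, 461 and 523 CPM in lean WT and at 568, 583 and 703 CPM in 4-week WT, which do not overlap but missed the threshold. The genotype by diet interaction at 4 weeks gave 0 called members and 0% of genes, with 5 members at an unadjusted p under 0.05 against 4.56% of genes.

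After 16 weeks of high fat diet the picture differed, averaged over the genotypes. Of the 39 members, 7 (17.9%) passed, 5 higher and 2 lower, against 6.63% of all genes tested, 2.92% higher and 3.72% lower. An unadjusted p under 0.05 was found for 16 members and for 20.1% of genes. The receptor chains Cd3d and Cd3e, the adaptor Sh2d2a and the brakes Ptpn22 and Cblb rose, while the brakes Ubash3b and Pag1 fell. By role, 2 of 4 receptor chains passed, 1 of 5 adaptors and 4 of 13 tested brakes, and 0 of the 4 kinases, 7 effectors, 3 NFAT genes, 2 coreceptor genes and CD45. Fold changes were positive for 27 members and negative for 12, with a median of 0.11 on the log2 scale, against -0.00 for all genes. In bulk libraries, fewer cells of a type and less RNA per cell cannot be told apart.

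CD3 delta and epsilon pair within the receptor, and each carries an activation motif in its tail. Cd3d (chr9:44981786-44987339, plus strand) ranged from 444 to 523 CPM in the 6 lean libraries, with a median of 487 CPM. At 16 weeks the 6 libraries lay at 577 to 657 CPM with a median of 635 CPM. Every 16-week library was above every lean one. The log2 fold change was 0.36 ± 0.07, or 1.29-fold (n = 6 and 6, adjusted p = 0.0036). Such a lack of overlap between all 6 and all 6 held for 2 members, Cd3d and the effector Bcl10 (5.13%), against 2.39% of genes.

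Cd3e (chr9:44998740-45009627, minus strand) went from 711 to 796 CPM (median 737 CPM) in lean cells to 784 to 1004 CPM (median 899 CPM) at 16 weeks, with overlap only between the highest lean and the lowest 16-week library. Its log2 fold change was 0.26 ± 0.07 (adjusted p = 0.017). Cd3g, the gamma chain, was at 581 to 693 CPM (median 628 CPM) and 659 to 765 CPM (median 742 CPM). It missed the threshold (0.21, adjusted p = 0.0734). Cd247, the zeta chain that carries most of the activation motifs and lies apart from the others at chr1:165788681-165877277, was at 382 to 484 CPM (median 426 CPM) in lean cells and at 366 to 407 CPM (median 400.0 CPM) at 16 weeks. It did not pass, and its log2 fold change was -0.14. Gm48719 overlaps Cd3e and Pou2f1 overlaps Cd247 on the opposite strand, and the kit does not mark strand, so such reads cannot be separated. Cd3d and Cd3g have no annotated overlap.

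**Figure D3:**
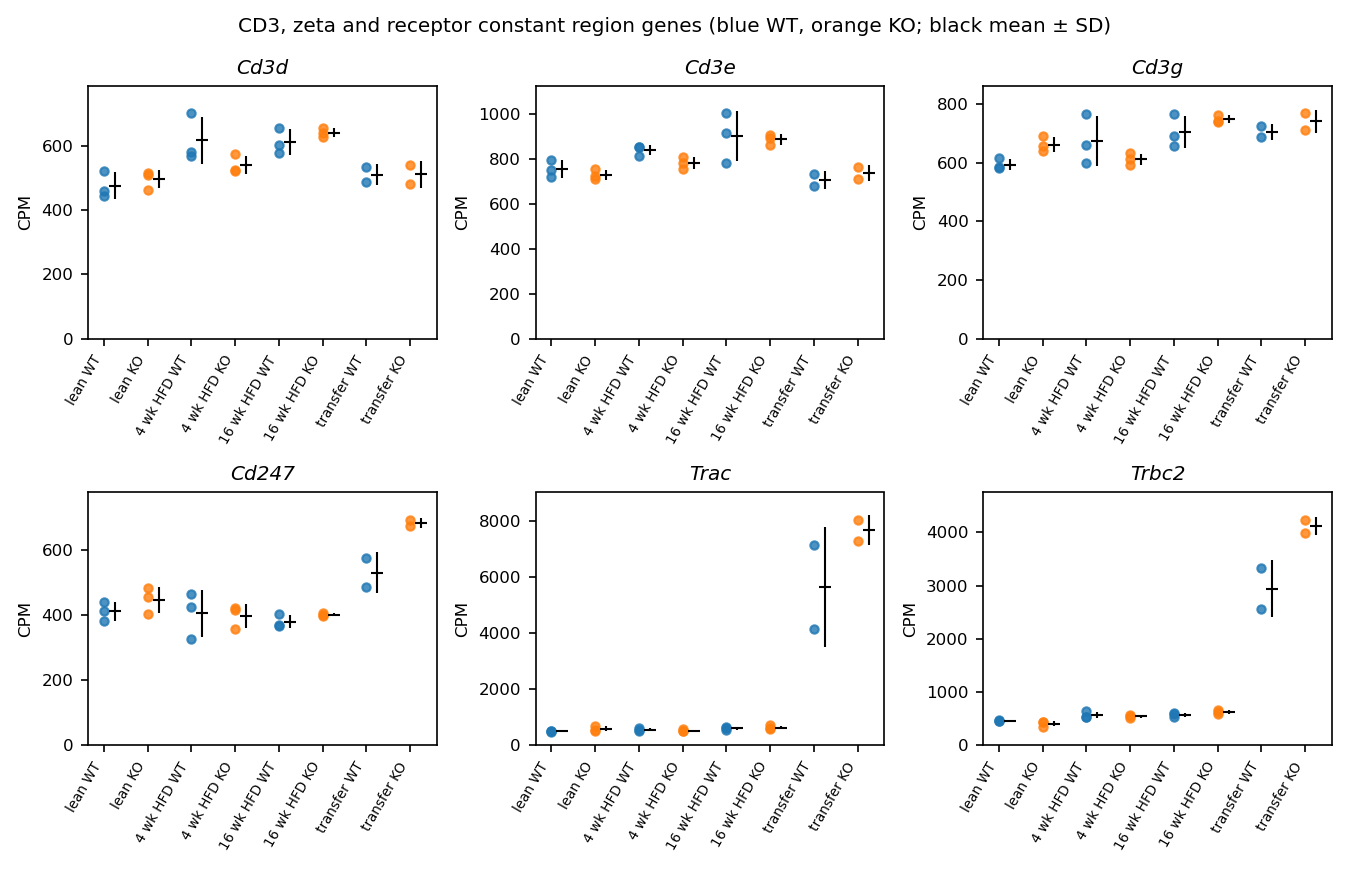
CPM (y axis, from 0) in each library for Cd3d, Cd3e, Cd3g, Cd247 and, for comparison, the constant genes Trac and Trbc2, in the 4 conditions (x axis). Dots are libraries (blue WT, orange KO), black marks the mean and SD of a group, and the transfer libraries are far above the rest for Trac and Trbc2 but not for the CD3 chains.

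Sh2d2a encodes TSAd, an adaptor that binds LCK. Lean libraries held 451 to 616 CPM (median 488 CPM) and 16-week libraries 582 to 702 CPM (median 616 CPM), with lean KO 2 and KO 3 inside the 16-week range. It rose by 0.30 ± 0.08 on the log2 scale (adjusted p = 0.0208). Leaving out lean WT replicate 1 or lean KO replicate 1 brought the adjusted p to 0.0507 and 0.0653.

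The brakes moved in both directions. Ubash3b (chr9:41011098-41161697, minus strand) was at 209 to 321 CPM in lean cells, with a median of 235 CPM, and at 88.2 to 259 CPM at 16 weeks, with a median of 129 CPM. The 3 lowest libraries were the 3 labelled KO, and 16 weeks WT replicate 2, at 259 CPM, stayed within the lean range. It fell by 0.81 ± 0.16 on the log2 scale, or 1.75-fold (adjusted p = 0.00334). Pag1, which recruits the inhibitory kinase CSK to the membrane, was at 63.1 to 125 CPM (median 80.0 CPM) and then at 44.6 to 77.9 CPM (median 66.2 CPM). It fell by 0.49 ± 0.14 (adjusted p = 0.0449), with much overlap. Its call was lost in 10 of 12 fits that left out 1 library, and held without lean WT replicate 1 (adjusted p = 0.0046) and without 16 weeks KO replicate 2 (0.0423).

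Cblb, the CBL-B ubiquitin ligase that sets the need for costimulation, was at 131 to 206 CPM in lean cells (median 154 CPM) and at 168 to 322 CPM at 16 weeks (median 238 CPM). Only 16 weeks WT replicate 2, at 168 CPM, and KO replicate 2, at 206 CPM, lay within the lean range. The rise was 0.56 ± 0.13 on the log2 scale (adjusted p = 0.0125). Ptpn22, a phosphatase that acts on LCK and ZAP70, was at 262 to 399.9 CPM (median 324 CPM) and 322 to 544 CPM (median 447 CPM). It rose by 0.44 ± 0.12 (adjusted p = 0.0346), with 16 weeks WT replicate 2 again the lowest of its condition. That call was lost in 9 of 12 fits without 1 library, and held without lean WT replicate 3 (adjusted p = 0.0181), 16 weeks WT replicate 2 (0.00538) and 16 weeks KO replicate 2 (0.0378). Without lean KO replicate 1 the members called numbered 4. Cd3d, Cd3e, Cblb and Ubash3b kept their calls in all 17 alternatives tried.

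Within genotypes, 0 of 39 members passed between 16 weeks and lean in WT, where 0.0855% of all genes did, with 8 members (6 higher, 2 lower) at an unadjusted p under 0.05 against 8.76% of genes. DESeq2 and edgeR with no filter on low counts each called 1 there, Sh2d2a. The WT ranges did not overlap for 5 members (12.8%), against 13.8% of genes. In KO, 5 members (12.8%) passed, 4 higher and 1 lower, against 5.95% of genes, 2.36% higher and 3.59% lower. At an unadjusted p under 0.05 there were 13 members in KO and 19.9% of genes. Cd3d, Themis, Ptpn6 and Cblb rose and Ubash3b fell. The interaction of genotype and 16-week diet gave 0 members and 0% of genes. A genotype effect on the response to diet was therefore not detected, and 5 members were at an unadjusted p under 0.05 there, against 8.49% of genes. DESeq2 called 0 members in the interaction.

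Ubash3b in cells labelled KO went from 238, 285 and 209 CPM lean to 113, 88.2 and 109 CPM at 16 weeks, and the groups were far apart. It fell by 1.24 ± 0.23 on the log2 scale, or 2.37-fold (n = 3 and 3, adjusted p = 0.00224). In WT the values were 321, 233 and 212 CPM lean and 146, 259 and 189 CPM at 16 weeks, with a log2 fold change of -0.37 ± 0.22 (adjusted p = 0.667). The difference between these 2 responses was -0.87 ± 0.32 (adjusted p = 0.432).

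Themis, an adaptor of thymocyte and T cell signalling that binds SHP-1 and GRB2, was at 22.7, 27.7 and 31.7 CPM in lean KO and at 46.8, 58.9 and 48.9 CPM at 16 weeks, without overlap. It rose by 0.91 ± 0.26, or 1.88-fold (adjusted p = 0.0413). Ptpn6, which encodes the phosphatase SHP-1, was at 140.4, 155 and 130.5 CPM and then at 234, 231 and 212 CPM, also apart (0.66 ± 0.16, 1.58-fold, adjusted p = 0.0151). In WT both genes overlapped between lean and 16 weeks. Cblb in KO was at 148, 152 and 131 CPM lean and at 240.0, 206 and 236 CPM at 16 weeks, without overlap (0.66 ± 0.19, adjusted p = 0.0401). Cd3d in KO was at 464, 510.1 and 515 CPM and at 656, 628 and 641 CPM, again apart (0.37 ± 0.10, adjusted p = 0.0366). With any 1 of the 6 libraries left out, Cd3d, Cblb and Themis no longer passed (adjusted p of 0.056 to 0.17) and 1 or 2 members were called. Ptpn6 no longer passed without lean KO replicate 1, lean KO replicate 3 or 16 weeks KO replicate 1 (0.0594 to 0.0611). Ubash3b passed in all 6. Ranges in KO did not overlap for 17 members (43.6%), against 25.3% of genes. Both tested genes of the endothelial list, Pecam1 and Cldn5, also rose in KO. All 4 genes of that list summed to 39.4 to 75.9 CPM in lean libraries. At 16 weeks the sum was 50.4 to 196 CPM, highest in KO replicate 1. Most of its counts were of Pecam1 (143 to 559 a library at 16 weeks). Cldn5 had 106, 29 and 17 counts in 16-week KO 1, 2 and 3, and 0, 3 and 0 in WT. Kdr had 38, 10 and 1 in KO, and 11, 1 and 2 in WT. Cdh5 had 4, 7 and 3 in KO, and 0, 0 and 2 in WT. The stromal genes and Fabp4 given above also stood apart in 16 weeks KO replicate 1. The part of all these markers in these results was not tested. Without that library 1 member was called in KO in place of 5, and 5 on average over genotypes in place of 7.

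The transferred cells differed most. Against lean cells, 19 of 39 members (48.7%) passed, 3 higher and 16 lower, where 16.2% of all genes passed, 7.35% higher and 8.81% lower. At an unadjusted p under 0.05 there were 28 members and 30.1% of genes. The zeta chain Cd247, the adaptor Sh2d2a and the brake Ubash3b rose. Of the 4 kinases 3 fell, of the 7 effectors 2, of the 3 NFAT genes 2 and of the 13 tested brakes 7, with 1 adaptor and the costimulator Cd28. The median log2 fold change was -0.24 over the members and -0.02 over all genes. This comparison uses the same lean libraries as the diet comparisons, so the values of both are not independent. It cannot be told apart from the receptor, sorting, depth and host of the transferred cells.

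**Figure D4:**
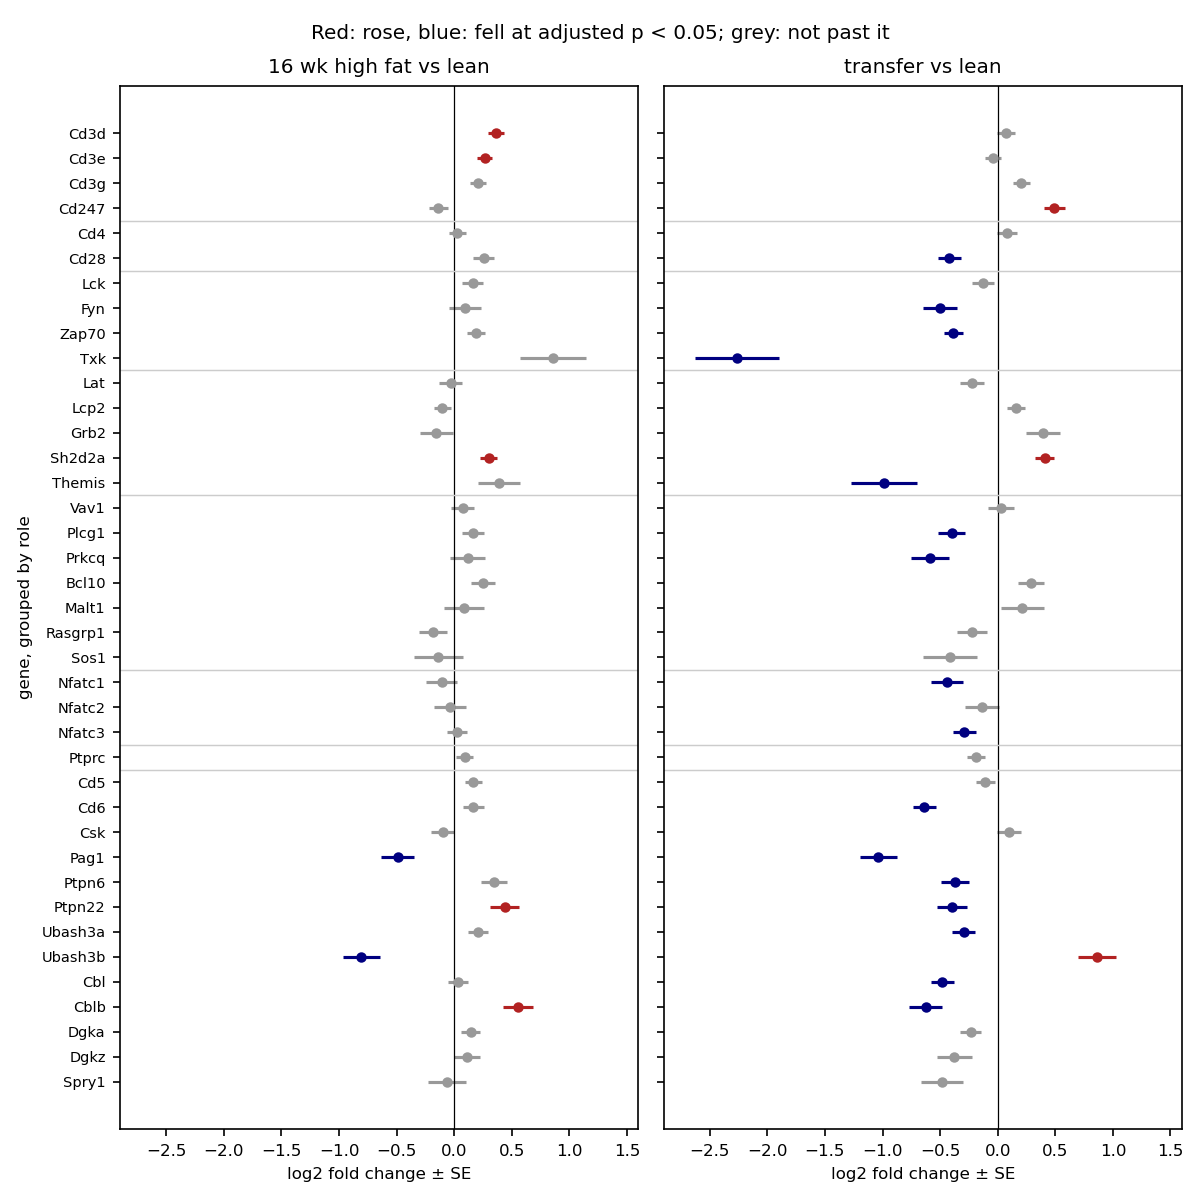
Log2 fold change against lean (x axis, bars show the SE) of each tested member (y axis), at 16 weeks of high fat diet (left) and after transfer (right), averaged over genotypes. Red members rose, blue fell and grey did not pass: 5 red and 2 blue on the left, 3 red and 16 blue on the right.

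In the receptor complex, Cd247 was at 382 to 484 CPM in lean cells (median 426 CPM) and at 486, 575, 674 and 695 CPM in transfer WT 1, WT 2, KO 1 and KO 2. All 4 transfer libraries were above the lean ones, the lowest by a small margin. It rose by 0.49 ± 0.09, or 1.40-fold (n = 6 and 4, adjusted p = 0.000695). Cd3d stayed between 482 and 540.2 CPM and Cd3e between 678 and 764 CPM after transfer, and neither passed. Cd3g, at 687, 726, 714 and 770.3 CPM, missed the threshold (0.21, adjusted p = 0.0559). Trac and Trbc2 rose by 3.63 ± 0.12 (adjusted p = 4.62e-16) and 3.02 ± 0.09 (adjusted p = 5.66e-17) in the same libraries. Cd28, the costimulatory receptor, was at 384 to 526 CPM in lean cells (median 394 CPM) and at 326, 341, 298 and 292 CPM after transfer, all lower. It fell by 0.42 ± 0.10 (adjusted p = 0.00431). Cd4 did not pass.

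Of the kinases, 3 of 4 fell. Txk (chr5:72695978-72752777, minus strand), a TEC family kinase that can phosphorylate PLC-gamma1, was at 17.4 to 38.9 CPM in lean cells (median 28.9 CPM) and at 4.63, 7.77, 6.68 and 5.11 CPM after transfer. The groups lay far apart. It fell by 2.26 ± 0.36, or 4.81-fold (adjusted p = 0.000158), the largest log2 fold change of a tested member among the 13 comparisons. At 16 weeks the same gene was at 12.9 to 75.6 CPM with a median of 62.1 CPM and did not pass (0.86 ± 0.29, adjusted p = 0.0801). Zap70, the kinase that docks on the phosphorylated receptor, was at 309 to 387 CPM (median 349 CPM) and at 291, 278, 251 and 251 CPM after transfer, all lower. It fell by 0.39 ± 0.09 (adjusted p = 0.00312). Fyn, a SRC family kinase, was at 56.8 to 95.7 CPM (median 75.2 CPM) and at 57.6, 62.5, 46.5 and 51.1 CPM, with overlap. It fell by 0.50 ± 0.15 (adjusted p = 0.0254). Lck did not pass, with 1053 to 1324 CPM in lean and 943 to 1211 CPM in transferred cells.

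Among the adaptors, Sh2d2a was at 669, 544, 787 and 742 CPM after transfer, against 451 to 616 CPM in lean cells, and only transfer WT 2 lay in the lean range. It rose by 0.41 ± 0.08 (adjusted p = 0.00179). Themis was at 27.4, 6.32, 14.6 and 21.6 CPM, against 22.7 to 57.7 CPM, and the highest transfer library overlapped. It fell by 0.99 ± 0.29 (adjusted p = 0.0204). Lat, Lcp2 (SLP-76) and Grb2, the adaptors that hold the effector enzymes, did not pass.

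Both effectors that fell produce or read diacylglycerol. Plcg1, the phospholipase that makes it, was at 183 to 354 CPM in lean cells (median 277 CPM) and at 217, 172, 245 and 197 CPM after transfer. Those ranges overlapped (-0.40 ± 0.12, adjusted p = 0.0198). Prkcq, protein kinase C theta, was at 231 to 378 CPM (median 298 CPM) and at 178, 171, 225 and 220.5 CPM, all lower (-0.58 ± 0.16, adjusted p = 0.0166). The other 5 effectors, Vav1, Bcl10, Malt1, Rasgrp1 and Sos1, did not pass. Of the NFAT genes, Nfatc1 was at 299, 312, 397 and 356 CPM against 287 to 543 CPM and fell by 0.44 ± 0.14 (adjusted p = 0.0356). Nfatc3 was at 179.6, 217, 219.5 and 185 CPM against 202 to 282 CPM and fell by 0.29 ± 0.10 (adjusted p = 0.0487). Both overlapped with the lean libraries.

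The brake Ubash3b was at 385, 502, 483 and 447 CPM after transfer, above all 6 lean libraries (209 to 321 CPM). It rose by 0.86 ± 0.16, or 1.82-fold (adjusted p = 0.000799). Pag1 (chr3:9687479-9833679, minus strand) was at 40.2, 50.03, 45.5 and 39.0 CPM, below all lean libraries (63.1 to 125 CPM). It fell by 1.04 ± 0.16, or 2.05-fold (adjusted p = 0.000127). Cd6 (chr19:10789341-10830058, minus strand) was at 665, 669.6, 482 and 508 CPM, against 758 to 1086 CPM with a lean median of 878 CPM, also without overlap. It fell by 0.64 ± 0.10, or 1.56-fold (adjusted p = 0.000108).

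Both CBL ligases were lower after transfer. Cblb (chr16:52031225-52208048, plus strand) was at 88.5, 92.7, 126 and 117 CPM, below all lean libraries (131 to 206 CPM), and fell by 0.63 ± 0.14 (adjusted p = 0.00395). Cbl was at 129, 161, 151 and 136 CPM against 156 to 242 CPM, with transfer WT 2 just inside the lean range, and fell by 0.48 ± 0.10 (adjusted p = 0.00185). Of the phosphatases, Ptpn22 (chr3:103859795-103912247, plus strand) was at 236, 253, 247 and 253 CPM, under all lean libraries, and fell by 0.39 ± 0.13 (adjusted p = 0.0435). Ptpn6 was at 118, 117, 116 and 128 CPM, also under all lean libraries, and fell by 0.37 ± 0.12 (adjusted p = 0.0399). Ubash3a, which encodes STS-2, the relative of STS-1, was at 375, 309, 307 and 319 CPM against 357 to 482 CPM, with transfer WT 1 inside the lean range, and fell by 0.30 ± 0.10 (adjusted p = 0.0399). The STS pair thus went opposite ways after transfer. Ranges of lean and transfer did not overlap for 12 members (30.8%), against 11.7% of genes. Of these, Dgka did not pass (803 to 864 CPM against 939 to 1054 CPM, adjusted p = 0.0877). Its transfer libraries were also below all 18 diet libraries (903 to 1302 CPM).

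**Figure D5:**
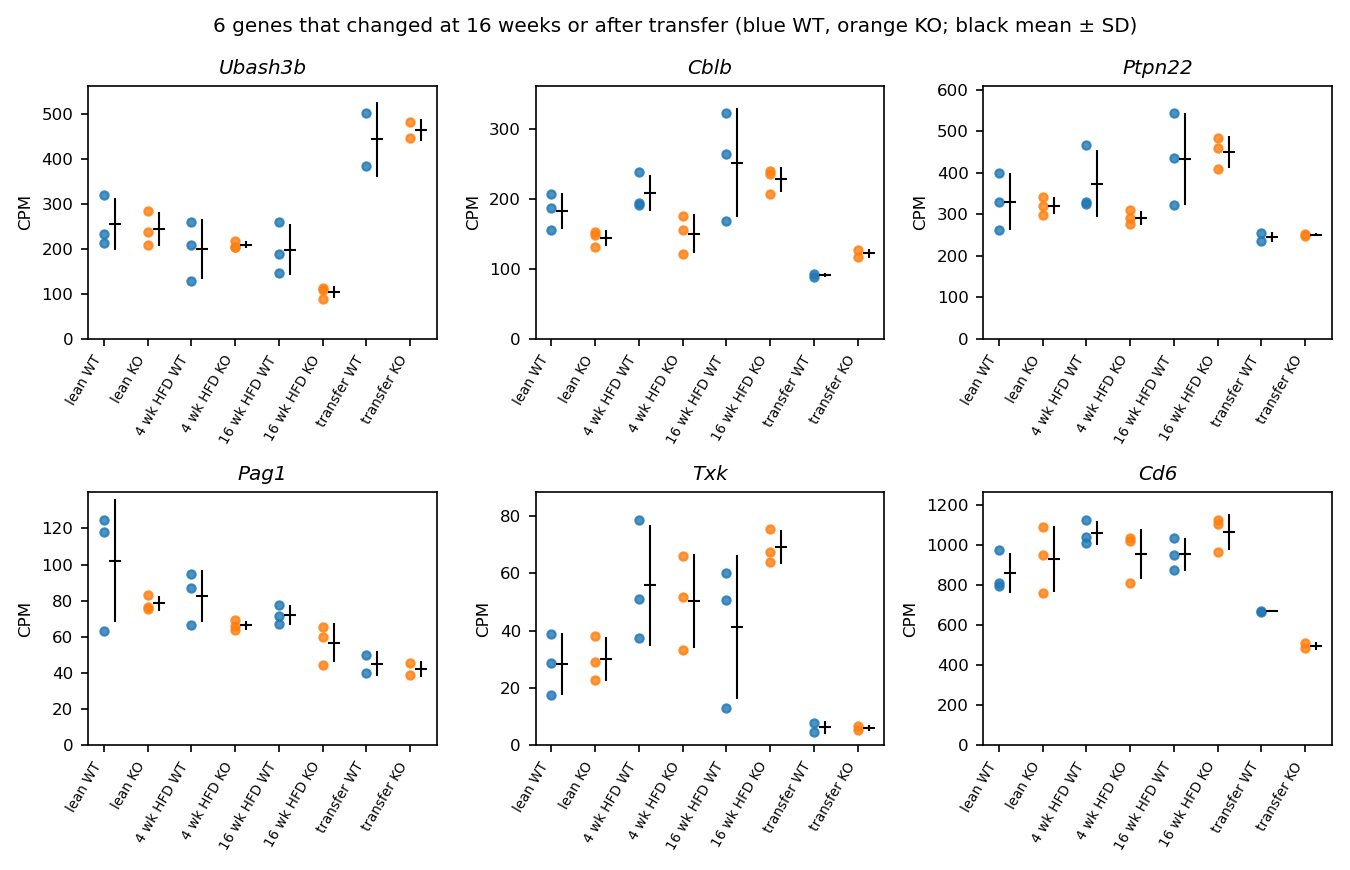
CPM (y axis, from 0) in each library for Ubash3b, Cblb, Ptpn22, Pag1, Txk and Cd6 in the 4 conditions (x axis), with blue dots for WT, orange for KO and black for the mean and SD of a group. Ubash3b is lowest in the 16-week KO libraries (88.2 to 113 CPM) and highest after transfer (385 to 502 CPM), while Cblb and Ptpn22 are highest at 16 weeks.

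The calls after transfer were not equally firm. Cbl, Cblb, Cd247, Cd28, Cd6, Pag1, Sh2d2a, Txk, Ubash3b and Zap70 kept them in all 10 fits that left out 1 library. Prkcq lost its call without transfer WT replicate 2 (adjusted p = 0.0612) or transfer KO replicate 2 (0.061), and Themis without lean WT replicate 2 (0.0599), transfer WT replicate 2 (0.0993) or transfer KO replicate 1 (0.0887). Nfatc1, Ptpn6 and Ptpn22 lost theirs in 8 of 10 fits, Ubash3a in 7, Fyn and Nfatc3 in 6 and Plcg1 in 5, with adjusted p-values up to 0.228. The count of called members was 12 without lean WT replicate 2 and 11 without transfer WT replicate 2 or transfer KO replicate 2. With WT libraries alone in the contrast 11 members were called (2 higher, 9 lower), and with KO alone 7 (3 higher, 4 lower). Pag1 and Txk (lower) and Sh2d2a and Ubash3b (higher) were called in both.

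Side by side, the brakes Ubash3b, Cblb and Ptpn22 took opposite directions in the 2 comparisons with lean cells, which share those lean libraries. Ubash3b changed by -0.81 ± 0.16 at 16 weeks and by 0.86 ± 0.16 after transfer. Cblb changed by 0.56 ± 0.13 and by -0.63 ± 0.14, and Ptpn22 by 0.44 ± 0.12 and by -0.39 ± 0.13. Pag1 fell in both, and the other tested brakes did not pass at 16 weeks on average over genotypes. With 1 library left out, Ptpn22 lost its call in 9 of 12 fits at 16 weeks and 8 of 10 after transfer. Pag1 lost its call in 10 of 12 fits at 16 weeks. The share of all genes called in opposite directions was not computed, so no pattern of the brakes is drawn.

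The rest of the pathway was read from a list of 51 further TCR pathway genes. At 16 weeks 6 of them passed, 3 higher and 3 lower (11.8%, against 6.63% of genes; median log2 fold change 0.05). Stim1, the calcium sensor of the endoplasmic reticulum, fell by 0.44 ± 0.07 (adjusted p = 0.000425), while the adaptors Sla (0.48 ± 0.08, adjusted p = 0.00079), Lax1 (1.14 ± 0.20, 0.00123) and Fyb (0.40 ± 0.09, 0.00919) rose. In KO alone 5 passed, or 3 without lean KO replicate 2 or 16 weeks KO replicate 2 and 8 with DESeq2. In WT alone 0 passed with edgeR and 1 with DESeq2. After transfer 13 passed, 2 higher and 11 lower (25.5%, against 16.2% of genes; median 0.02). The count was 8 without lean WT replicate 3, 7 without transfer KO replicate 1, 7 with WT libraries alone in the contrast and 1 with KO alone. Lax1, an inhibitory adaptor, fell by 1.62 ± 0.26 (adjusted p = 0.000179), Braf, a RAF kinase, by 0.70 ± 0.14 (adjusted p = 0.00151) and Itpr3, a calcium channel, by 0.72 ± 0.15 (adjusted p = 0.00233). Trat1, an adaptor that joins the receptor complex, changed by -2.67 ± 0.47 (adjusted p = 0.000438). Between KO and WT edgeR called 0 genes of this list in each comparison, as did DESeq2. With no filter on low counts edgeR called 1 in lean cells, 1 at 16 weeks and 2 on average over the diets.

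Genes that TCR signals are known to induce, a list of 25, were summed beside the members, although other stimuli and cell isolation are also known to induce many of them. Their summed level was 21400 to 39500 CPM in lean cells, 24100 to 32400 CPM at 4 weeks, 17800 to 24700 CPM at 16 weeks and 43600 to 54700 CPM after transfer. The transfer libraries were above all others. By genotype, the 3 lean KO libraries (38200 to 39500 CPM) were above the 3 lean WT (21400 to 35300 CPM), while the 3 16-week KO libraries (17800 to 21100 CPM) were below the 3 16-week WT (22200 to 24700 CPM). In 4-week and transferred cells the genotypes overlapped. No gene of the list passed with edgeR between KO and WT in lean cells (median log2 fold change 0.34) or at 16 weeks (median -0.32), or in the 16-week interaction (median -0.74). At an unadjusted p under 0.05 there were 11, 9 and 14 of the 25 in that order, against 7.17%, 9.15% and 8.49% of genes. DESeq2 called 4 in lean cells, 0 at 16 weeks and 5 in the interaction, and edgeR with no filter on low counts called 9, 10 and 12. Without lean WT replicate 1 edgeR called 3 in lean cells and 5 in the interaction, and without 16 weeks WT replicate 1 it called 4 in the interaction. At 16 weeks 15 of 25 fell and 3 rose (median log2 fold change -0.51), against 3.72% and 2.92% of all genes. Fosb fell by 1.88 ± 0.16 (adjusted p = 7.65e-07), Cd69 by 1.13 ± 0.12 (6.45e-06), Egr1 by 1.83 ± 0.19 (6.45e-06) and Fos by 1.47 ± 0.16 (1.16e-05). In KO 14 fell and 1 rose, against 3.59% and 2.36% of all genes. In WT 1 fell and 1 rose, where 0.0855% of all genes passed in either direction. The WT count was 0 without lean WT replicate 1, lean WT replicate 3 or 16 weeks WT replicate 3, 1 without lean WT replicate 2 or 16 weeks WT replicate 1, and 9 with no filter. After transfer 14 rose and 0 fell (median 0.54), against 7.35% and 8.81% of all genes. Among them Nr4a3 rose by 1.11 ± 0.13 (adjusted p = 2.51e-06), Nr4a1 by 1.00 ± 0.15 (6.44e-05), Nfkbia by 0.85 ± 0.13 (8.32e-05) and Cd69 by 0.76 ± 0.13 (0.000202). The count was 6 without transfer WT replicate 2, 8 without transfer KO replicate 2 and 3 with KO libraries alone in the contrast. Whether these genes and the members share a cause was not tested.

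Of 8 genes of resting T cells, 3 rose at 16 weeks: S1pr1, a receptor for exit from tissue, by 0.73 (adjusted p = 0.00628), Tcf7 by 1.08 (0.0119) and Lef1 by 0.61 (0.0141), the last 2 being transcription factors of naive cells. Of all genes 2.92% rose. In KO alone the same 3 passed, while in WT alone they did not. For Tcf7 the log2 fold change was 1.69 in KO (adjusted p = 0.00813) and 0.48 in WT (0.747). The difference between these responses did not pass in the edgeR interaction (1.21 ± 0.50, adjusted p = 0.515). After transfer Satb1 (-4.42), Tcf7 (-3.19) and Ccr7 (-4.05) were among those that fell, and Il7r rose by 0.67 on the log2 scale. Of 12 T cell and Treg markers, Il2ra (-0.86), Pparg (-1.95), Klrg1 (-1.05) and Il1rl1 (-0.87) fell at 16 weeks and Trbc2 rose by 0.46. Among all genes 3.72% fell and 2.92% rose. In KO alone the same genes passed and Gata3 fell too (-0.73), where 3.59% of all genes fell and 2.36% rose. In WT alone none of them passed (edgeR adjusted p of 0.183 for Pparg to 0.784 for Klrg1). None passed in the 16-week interaction (smallest adjusted p = 0.314, Klrg1). After transfer 9 of the 12 rose, among them Il2ra by 1.17, Il1rl1 by 1.04, Pparg by 0.99 and Klrg1 by 0.91, and Trbc1 fell by 1.01. Of all genes 7.35% rose and 8.81% fell there. Markers of other cells moved as well. Pecam1 (0.80, adjusted p = 0.0422) and Fabp4 (1.84, adjusted p = 0.0478), from the endothelial and adipocyte lists, rose at 16 weeks. Cldn5 of the endothelial list did not pass (1.56, adjusted p = 0.456), and Adipoq and Plin1 had too few counts to be tested. After transfer the cytotoxic genes Nkg7 (-2.26) and Prf1 (-2.74) and the B cell gene Cd22 (-3.77) fell and Trdc rose by 6.76. In transfer WT 1, WT 2, KO 1 and KO 2, Trdc had 106, 404, 561 and 632 counts. Trac had 18718, 39655, 33906 and 42577 there. The Trdc rise cannot be told apart from the receptor difference given above and is not read as a count of other cells. In these comparisons no tested myeloid or stromal gene passed. The part of these markers in the results on the members was not tested.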

How the data were processed

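The deposited table holds whole-number counts per gene symbol, which the authors made by aligning reads to mm10 with STAR 2.7.3a and assigning them with featureCounts, per the submitters' processing notes. The strand setting is not given in the sources used here, and the labels' protocol describes oligo(dT) priming, PCR and tagmentation, without molecular identifiers. Counts were scaled by TMM, filtered with filterByExpr (minimum count 10) and compared by quasi-likelihood testing (edgeR 4.0.16 under R 4.3.3, two-sided), with Benjamini-Hochberg adjustment over all genes and a threshold of 0.05. All 18 diet libraries were fitted together, with 11698 genes, the 4 transfer libraries alone, with 11715, and all 22 for transfer against lean, with 12523. Alternatives were RLE scaling, DESeq2 1.42.0, no filter, a replicate block, fits of only the libraries compared, and each library left out. WT or KO alone in the transfer contrast was added after seeing the data. On simulated data the lean KO against WT fit recovered 70% of genes changed by 1 and 97% of those changed by 2 on the log2 scale, and the transfer KO against WT fit 57% and 97%. Only genes above a set level were changed, and all groups had the same mean before the change. Smaller changes were not simulated, so recovery of differences as small as most of those given for members is not known. Library values or ranges were given for members past the threshold in any comparison and the CD3 chains. Library values were also given for the member of smallest p between KO and WT within each condition. From the other pathway and TCR-induced lists up to 4 genes by smallest p were named. The members and all lists, including the other pathway, TCR-induced, resting T cell and marker lists, were chosen with earlier results of these data known. Positions came from GENCODE M21, in which 52936 of 55011 symbols (96.2%) were found, and 21 members overlap a gene on the opposite strand. Promoters came from RefSeq. The result for 1 gene of a further list is not reported here.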

Additional observations from a re-analysis of the deposited data

Results flagged for a closer look

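Reversals between genotypes were searched only in pairs of conditions that no interaction test covers. Pairs of lean with 4-week or 16-week cells were therefore left out, and the counts here do not include them. In 5 cases every library labelled KO lay on one side of every WT library in a condition, and on the other side in another condition. The difference between conditions was not tested in any of them. For Ptpn6 the log2 fold change of KO over WT was -0.37 at 4 weeks and 0.38 at 16 weeks, a difference of 0.74. For Dgkz, a diacylglycerol kinase, it was -0.36 at 4 weeks and 0.24 at 16 weeks, a difference of 0.60. For Cblb it was 0.41 after transfer, against -0.35 in lean cells, a difference of 0.76, and against -0.46 at 4 weeks, a difference of 0.87. For Nfatc1 it was -0.49 at 16 weeks and 0.29 after transfer, a difference of 0.77. Such reversals were found for 2 of 39 members between 4 and 16 weeks, where 0.591% of 11003 genes had them, and for 1 member each between lean and transfer (1.94% of genes), 4 weeks and transfer (1.53%) and 16 weeks and transfer (2.65%). With 2 libraries a group after transfer, ranges of WT and KO did not overlap for 35.6% of genes. No group held 4 or more libraries, so single libraries were not screened within groups.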

How the results depend on the processing

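Over 41 results on single members, 626 alternative values were computed: 489 kept direction and side of the threshold, 129 lost the call, 8 gained one and 0 changed direction. The cause of the changes was not tested. At 16 weeks in KO, where 5 members were called, DESeq2 called 9, a fit of only those libraries 8 and the replicate block 3, and leaving out 1 library 1 to 2. At 16 weeks in WT, DESeq2 and no filter each called 1 in place of 0. With no filter the calls were 2 at 4 weeks in WT, 1 in the 16-week interaction, 2 for KO against WT at 16 weeks and 4 on average over the diets, all in place of 0. DESeq2 called 1 for KO against WT at 16 weeks and 1 after transfer, and leaving out 1 library gave 0 to 1 at 16 weeks. For 16 weeks averaged over genotypes, leaving out 1 library gave 4 to 9 calls in place of 7. For transfer it gave 11 to 21 in place of 19, WT alone 11 and KO alone 7. Same-numbered libraries did not all deviate together above 0.1 (lean WT with lean KO, correlations of 0.00648 to 0.0139), so the numbers were not taken to pair libraries. The replicate block left 7 members called at 16 weeks on average and 15 after transfer. Genes of few counts, such as Txk after transfer (21 to 43 counts a library), carry the most counting error. Fits of only the libraries compared were not listed for transfer KO against WT and the average over diets.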
